A study of Mus musculus with 21 samples.

Results

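Immediate early genes are switched on within minutes of a signal reaching a cell, without new protein having to be made first. The panel described here held 10 of them: *Fos*, *Fosb*, *Jun*, *Junb*, *Jund*, *Egr1*, *Atf3*, *Ier2*, *Dusp1* and *Zfp36*. They were found by symbol among the 53801 genes of the count table, each matched 1 row, and all 10 were among the 20256 genes that passed the filter of at least 10 counts in total. *Fos* was chosen on these same libraries for the spread of its level between them, so its values are given as a description with no test, and every count of tested members below is over the other 9.

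The libraries are bulk RNA-seq of CD138+ IgA+ plasma cells (PCs) sorted from the small intestine of C57BL/6 mice, 1 library per mouse. Every mouse, control or not, carried *Arntl* fl/fl, the floxed gene for the clock factor Bmal1. The 12 control mice had no Cre (Mb1Cre-/- x Arntlfl/fl), and were taken at Zeitgeber time (ZT) 0, which is lights on (n = 6), or at ZT12 (n = 6). The 9 knockout mice carried 1 copy of Cre under the B cell lineage gene *Mb1* (Mb1Cre+/- x Arntlfl/fl) and were taken at ZT0 (n = 4) or ZT12 (n = 5), so that *Arntl* is lost in all B cells and not only in PCs. Ages are not in the labels. Groups follow the sample titles, because the genotype field names the control genotype in 8 of the 9 knockout samples. *Cd79a*, the gene at the *Mb1* locus, was at 163 to 276 CPM (the count scaled to the library total) in the knockout libraries and at 386 to 586 in the control libraries, with no overlap, in the direction the titles give. Every knockout mouse carried Cre and no control mouse did. In each comparison of genotypes, loss of *Arntl*, the presence of Cre and the lower *Cd79a* therefore cannot be told apart. *Arntl* had a median of 7.92 CPM in control mice at ZT0 against 4.46 in knockout mice at ZT0, and 4.49 against 3.97 at ZT12, where the ranges overlapped; the count covers the whole gene and not only the floxed part.

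The proteins of the FOS family (*Fos*, *Fosb*) cannot pair with themselves and instead pair with those of the JUN family (*Jun*, *Junb*, *Jund*) to form the transcription factor AP-1. *Egr1* encodes a zinc finger transcription factor and *Atf3* a stress-induced factor of the same leucine zipper class as FOS and JUN, while *Ier2* encodes a small nuclear protein. *Dusp1* and *Zfp36* act as brakes: DUSP1 is a phosphatase that inactivates MAP kinases, and tristetraprolin, the product of *Zfp36*, speeds the decay of messenger RNAs with AU-rich ends. In B cells the group is known for its response to antigen receptor and mitogen signals, and in many tissues it also responds to handling, which includes the warm collagenase digestion that released the cells used here.

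Between 14471018 and 22785835 reads per library were counted on genes. Immunoglobulin genes took 51.5% to 63.6% of them, and 4 libraries stood apart with 59.1% to 63.6%, control ZT12 replicates 2, 4 and 5 and knockout ZT0 replicate 3, against 51.5% to 55.7% in the other 17. Each of 10 plasma cell markers was at 68.6 CPM or more in every library, with *Sdc1*, which encodes CD138, at 462 to 708 CPM. Of the T cell marker *Cd3e*, the B cell marker *Ms4a1* and the fibroblast marker *Col1a1*, none went over 3.34 CPM in any library, whereas the summed CPM of the epithelial markers (16 tested, 5 of them with a median below 1 CPM) reached 1076 in control ZT12 replicate 5 and 822 in knockout ZT12 replicate 5, against 56.1 to 357 in the others. Levels above and below are CPM normalized by the trimmed mean of M values (TMM), which corrects for the composition of each library. In bulk RNA, more cells with a transcript and more transcript per cell cannot be told apart.

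The promoters of several of these genes hold the cyclic AMP response element (CRE) or its half-site, where CREB and ATF proteins bind, and the stretches below show where these letters lie in the members that hold them. Of the 10 genes, 8, all but *Egr1* and *Ier2*, had a promoter window in the RefSeq table (build GRCm38.p6), and the 250 bases before the start were searched on both strands. The half-site, TGACG or its reverse complement CGTCA, was found in 5 of the 8, and in 17.8% of all 32851 windows. The stretches are written 5' to 3' on the strand of the gene, with the half-site, the full CRE (TGACGTCA, which holds 2 half-sites) or the E-box (CACGTG) in capitals.
Fos, chr12:85473796-85473855, + strand: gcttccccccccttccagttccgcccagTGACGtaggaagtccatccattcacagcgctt
Fosb, chr7:19310074-19310133, - strand: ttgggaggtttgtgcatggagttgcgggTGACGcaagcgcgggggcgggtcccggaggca
Junb, chr8:84978823-84978882, - strand: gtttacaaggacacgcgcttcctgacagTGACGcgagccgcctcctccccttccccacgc
Atf3, chr1:191183334-191183393, - strand: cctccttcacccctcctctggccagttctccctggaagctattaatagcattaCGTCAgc
Dusp1, chr17:26508581-26508640, - strand: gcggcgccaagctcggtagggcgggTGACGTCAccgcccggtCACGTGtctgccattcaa
In *Fos* the site shown lies 66 to 62 bases before the start, and another lies 129 to 125 bases before it. *Dusp1* was the only 1 of the 8 with the full CRE (1.55% of all windows), and also the only 1 with CACGTG (6.02% of all windows), the E-box that Bmal1 and its partner CLOCK can bind. The serum response element CCATAAAAGG was found in the window of *Zfp36* alone among the 8, and such elements (CC, then 6 bases of A or T, then GG) were in 1.47% of all windows. An element in *Egr1* or *Ier2*, or more than 250 bases before the start of *Fos* or any other gene, would not have been found. The AP-1 site itself, TGACTCA or TGAGTCA, was in none of the 8 and in 4.46% of all windows. *Jun* and *Jund* held none of these motifs in this window, and the windows of *Jund*, *Atf3* and *Zfp36* belong to a start that lies 1210, 34706 and 1025 bases from the gene start used in the count table. A match of letters is a description of the sequence and not a measurement of binding.

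*Fos* (chr12:85473890-85477273, + strand) ran from 135 to 1421 CPM over the 21 libraries. In control mice at ZT0 it was at 135 to 459 CPM with a median of 289, and in control mice at ZT12 at 203 to 1271 with a median of 773. In knockout mice at ZT0 the 4 libraries held 505, 334, 1421 and 250 CPM, and in knockout mice at ZT12 the 5 libraries held 178, 547, 187, 218 and 207. The spread lay inside the groups as much as between them: replicates 2 to 5 of control ZT12, at 767 to 1271 CPM, were above every control ZT0 library, while replicates 1 and 6, at 294 and 203, were among them, and in the knockout mice 1 library of each group, replicate 3 at ZT0 and replicate 2 at ZT12, stood above its companions. The groups overlapped in every pairing of genotype and time.

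**Figure D1:**
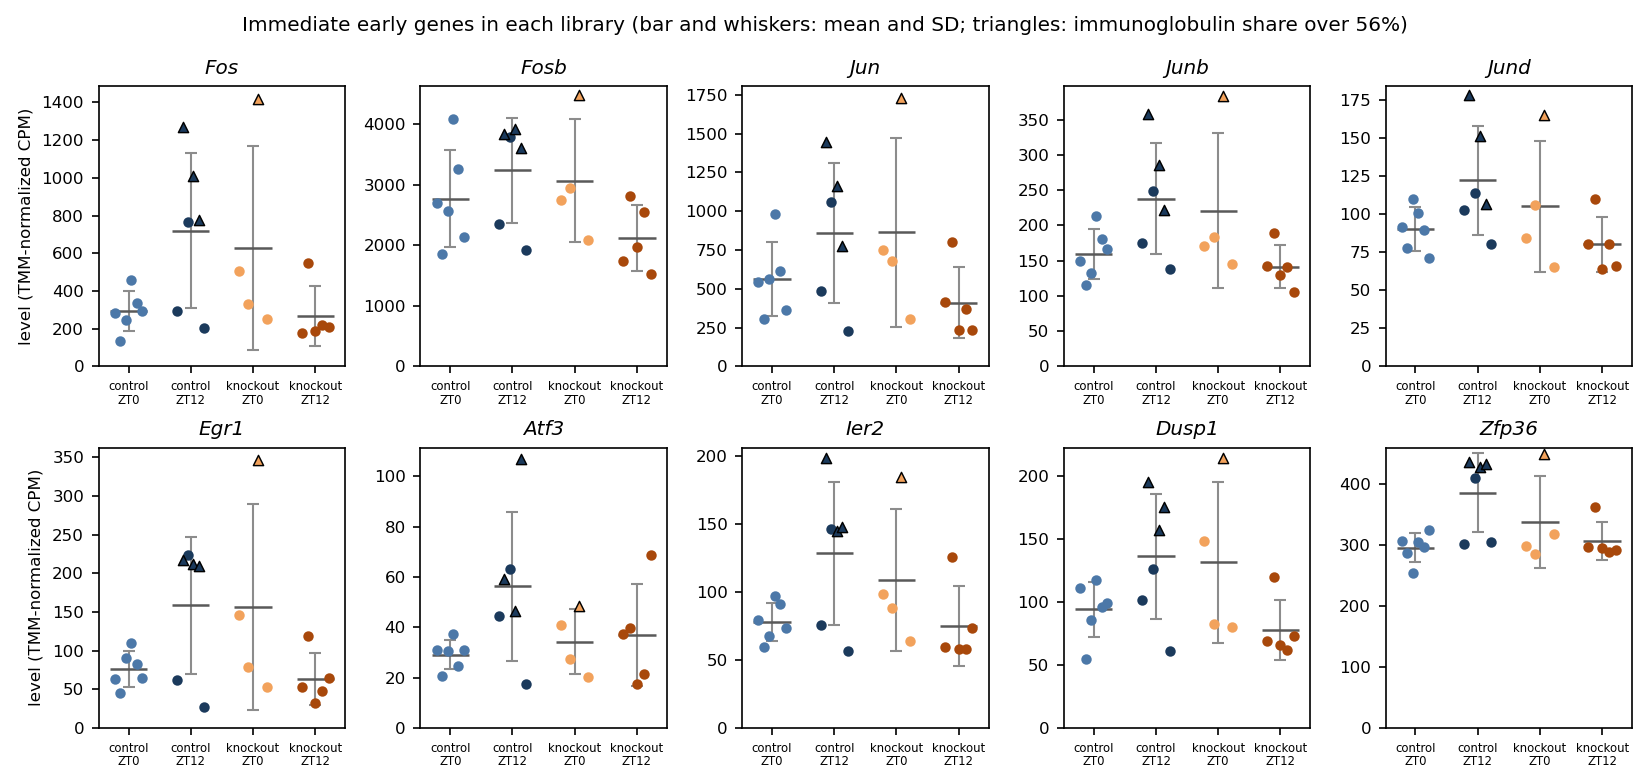
Level of each of the 10 genes in each library (vertical axes, TMM-normalized CPM, each from 0) by group (horizontal axes); each point is 1 mouse, the bar and whiskers are the mean and SD, and triangles mark the 4 libraries with an immunoglobulin share over 56%. In control ZT12 and knockout ZT0 the high points recur from panel to panel, and *Fos* spans 135 to 1421 CPM.

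Of the other AP-1 genes, *Fosb* (chr7:19302696-19310051, - strand) was the most counted, with 26120 to 67164 counts per library, the seventh gene by total count once immunoglobulin genes were set aside. Per kilobase of gene model its median over all libraries was 432 CPM, against 176 for *Jun*, 125 for *Fos*, 74.0 for *Junb* and 55.0 for *Jund*. Its spread was smaller, from 1530 to 4480 CPM. The highest value, 4480, was again in knockout ZT0 replicate 3, but the next, 4075, was in control ZT0 replicate 4.

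*Jun* (chr4:95049034-95052222, - strand) had medians of 552 CPM in control ZT0 (308 to 980) and 917 in control ZT12 (226 to 1445). The knockout libraries held 748, 678, 1729 and 305 CPM at ZT0 and 414, 799, 237, 372 and 234 at ZT12. The lowest library of all was in the control ZT12 group and so were 3 of the 4 highest, so that the ZT12 range enclosed the ZT0 range.

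*Junb* (chr8:84974484-84978718, - strand), which can oppose *Jun* at shared sites, was at 115 to 214 CPM (median 158) in control ZT0 and at 139 to 358 (median 235) in control ZT12. The knockout libraries held 170, 183, 384 and 146 CPM at ZT0 and 142, 189, 129, 141 and 105 at ZT12. *Junb* overlaps *Prdx2* on the other strand, which took 10483 counts against 65105 for *Junb*, and since the sources used here do not say whether reads were counted by strand, a part of either count may belong to the other. *Jund* (chr8:70698949-70700616, + strand), the member of the JUN family most often expressed in resting cells, moved least of the 3, from 64.2 to 178 CPM over all libraries, with its highest values in control ZT12 replicate 2 and knockout ZT0 replicate 3 (178 and 165).

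*Egr1*, on chromosome 18, had the widest range of the 10 relative to its lowest value, from 27.1 to 346 CPM. In control ZT0 it was at 44.5 to 109 CPM (median 74.1). In control ZT12 replicates 2 to 5 lay close together at 209 to 224 CPM, above every control ZT0 library, whereas replicates 1 and 6 held 62.0 and 27.1. The knockout libraries held 146, 79.3, 346 and 52.6 CPM at ZT0 and 53.4, 119, 32.1, 47.3 and 64.4 at ZT12, so here too the groups overlapped.

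*Atf3* (chr1:191170296-191218039, - strand) was the least counted of the 10 and followed a partly different order. Its highest values were 107 CPM in control ZT12 replicate 5 and 68.9 in knockout ZT12 replicate 5, the pair of libraries with the highest epithelial marker sums, and knockout ZT0 replicate 3, the highest library for *Fos*, held 48.6. In control ZT0 it was at 20.6 to 37.2 CPM and in control ZT12 at 17.4 to 107. With the epithelial marker level as a covariate its log2 change from ZT0 to ZT12 went from 0.95 to 0.47 ± 0.38 in control mice (edgeR adjusted p = 0.576) and from 0.11 to -0.29 ± 0.41 in knockout mice (0.925). Whether *Atf3* RNA came from epithelial cells was not tested.

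Among the 3 remaining genes, *Ier2* (chr8:84661331-84662852, - strand) ran from 56.8 to 198 CPM and *Dusp1* (chromosome 17) from 55.2 to 215, with control ZT12 replicate 2 and knockout ZT0 replicate 3 the highest pair for both. *Zfp36* (chr7:28376784-28380253, - strand) was the steadiest, at 254 to 324 CPM in control ZT0 and 301 to 436 in control ZT12. Its levels fell into 2 bands: control ZT12 replicates 2 to 5 and knockout ZT0 replicate 3 held 409 to 450 CPM, and of the other 16 libraries only knockout ZT12 replicate 2, at 361, was above 324.

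The same libraries were therefore high for most of the genes. For *Fos*, *Junb*, *Egr1*, *Ier2* and *Zfp36* the 5 highest libraries were exactly control ZT12 replicates 2, 3, 4 and 5 and knockout ZT0 replicate 3, and for each of the other 5 genes 4 of the 5 highest came from that set. In deviations of log2 CPM from the group means over 21 libraries, all 45 pairs of the 10 genes had a positive Pearson correlation, from 0.42 to 0.97 with a median of 0.83. The closest pair was *Fos* with *Ier2* (0.97). The pairs with *Atf3* were the loosest, at 0.42 to 0.79, against 0.61 to 0.97 among the rest. The points share their libraries, TMM factors and groups, and these values describe the libraries with no test.

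**Figure D2:**
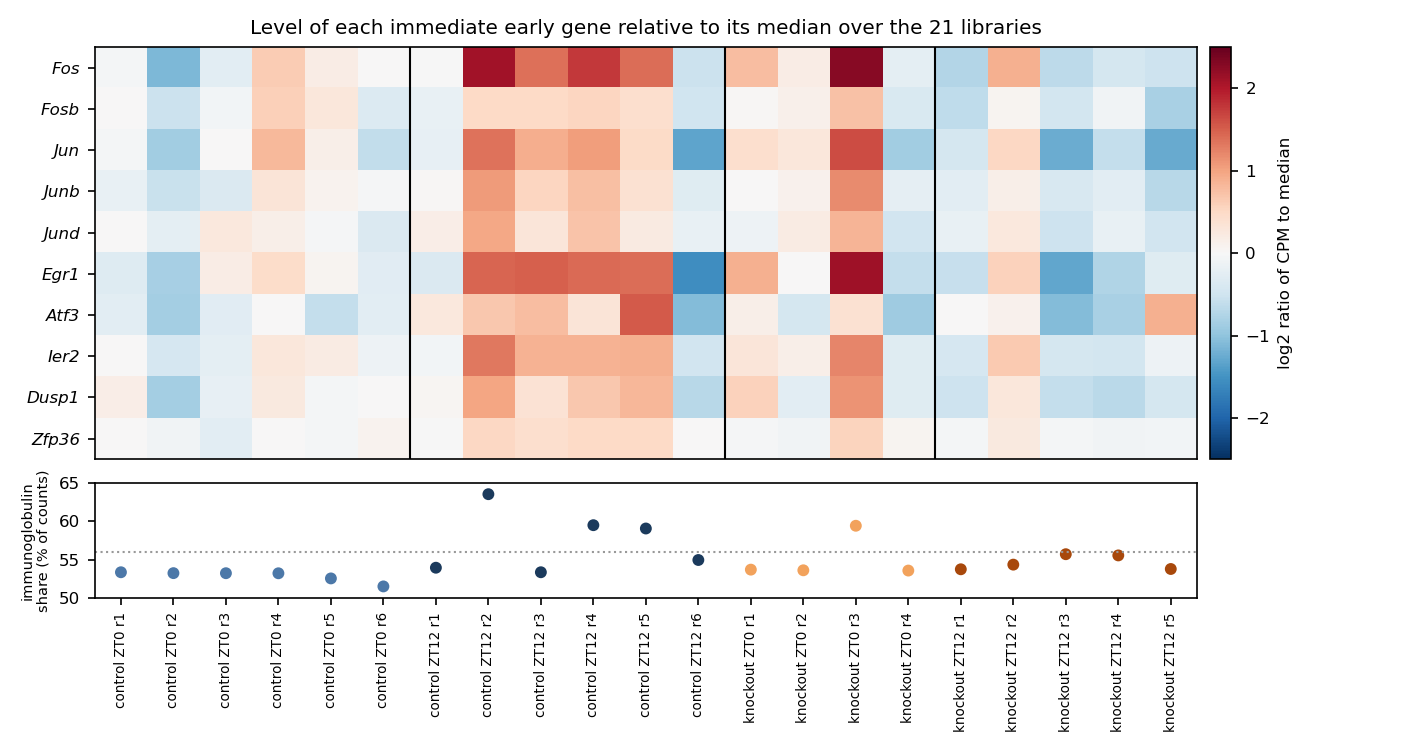
Upper panel, the log2 ratio of each gene's level to its own median over the 21 libraries (rows are genes, columns are libraries, black lines part the 4 groups); lower panel, the immunoglobulin share of each library in % of its counts, on an axis from 50 to 65 with a dotted line at 56%. The columns of control ZT12 replicates 2 to 5 and knockout ZT0 replicate 3 are the deepest red for most genes, and control ZT12 replicate 3 is red with a share of 53.3%. Other columns are above the median for several genes. Examples are control ZT0 replicate 4 and knockout ZT12 replicate 2, with *Fos* at 459 and 547 CPM against a median of 295.

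The spread inside groups differed by gene. The pooled within-group SD of log2 CPM was 0.95 for *Egr1*, 0.86 for *Fos*, 0.84 for *Jun*, 0.67 for *Atf3*, 0.53 for *Ier2*, 0.52 for *Dusp1*, 0.44 for *Junb*, 0.42 for *Fosb*, 0.38 for *Jund* and 0.21 for *Zfp36*, and the median over the 7129 genes with a mean log2 CPM of 3 or more was also 0.21. *Zfp36* was close to that median and the other 9 were above it, with *Egr1* ranked 135 and *Fos* ranked 162 of the 7129. *Fos* was chosen on these same libraries for its spread, so its rank restates that choice. The other genes moved with *Fos* in their within-group deviations, *Ier2* most closely (r = 0.97), so their ranks are not separate results.

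Genes outside the panel with the most similar pattern were sought among 6925 genes, by correlation of their within-group deviations with the mean standardized deviation of the 10 over the 21 libraries. The 5 closest were *Klf6* (r = 0.94), *Vmp1* (0.94), *Gem* (0.94), *Rrad* (0.93) and *Myl12a* (0.93). *Klf6* encodes a zinc finger transcription factor that is itself an immediate early gene, *Gem* and *Rrad* encode small GTP-binding proteins of 1 family, *Vmp1* a membrane protein of autophagy and *Myl12a* a myosin light chain. *Klf6* ranged from 178 to 526 CPM.

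The first comparison asked whether the genes differed by time of day where the clock was intact. From ZT0 to ZT12 in control mice the fitted log2 change was 1.30 for *Fos*. It was above 0 for all of the other 9 genes, from 0.23 for *Fosb* to 1.06 for *Egr1* with a median of 0.57, against a median of 0.01 over all genes tested. None of the 9 passed the test (edgeR, Benjamini-Hochberg adjusted p under 0.05 over 20256 genes), where 1.73% of all genes did. The closest was *Zfp36*, with a log2 change of 0.38 ± 0.12 (SE) and an adjusted p of 0.0937. Next came *Atf3* at 0.95 ± 0.37 (adjusted p = 0.195), *Ier2* at 0.72 ± 0.30 (0.221) and *Junb* at 0.57 ± 0.25 (0.226). At an unadjusted p under 0.05, these 4 of the 9 passed, where 18.1% of all genes did, and the number was 2 without control ZT0 replicate 2, control ZT12 replicate 2 or control ZT12 replicate 4, while leaving out control ZT12 replicate 6 gave 7. DESeq2 called *Zfp36* (adjusted p = 0.0193) and none of the other 8, where it called 5.21% of all genes, and gave 6 of the 9 an unadjusted p under 0.05, where 17.2% of all genes had one. *Zfp36* was also called by edgeR without control ZT12 replicate 1 (adjusted p = 0.0264), without control ZT12 replicate 6 (0.035) and without knockout ZT0 replicate 3 (0.0417). Scaling by library size in place of TMM moved the median change of all genes to -0.20 and that of the 9 to 0.33, all 9 still above 0 and 0 of them at an unadjusted p under 0.05.

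In knockout mice the same comparison ran the other way. *Fos* had a log2 change of -1.23 from ZT0 to ZT12, and 8 of the other 9 genes were below 0, from -1.30 for *Egr1* to -0.14 for *Zfp36*, with *Atf3* at 0.11. None of the 9 passed the adjusted test by edgeR or by DESeq2 (adjusted p of 0.613 to 0.972 by edgeR), and 0% of all genes passed it in edgeR and 0.233% in DESeq2. At an unadjusted p under 0.05 there were 3 of 9, *Junb* (-0.64 ± 0.28), *Egr1* (-1.30 ± 0.59) and *Dusp1* (-0.76 ± 0.34), where 8.01% of all genes passed, and by DESeq2 there were 5, where 7.64% did. The size rested on 1 mouse: without knockout ZT0 replicate 3 the change was -0.44 for *Fos*, -0.55 for *Egr1* and -0.24 for *Junb*, *Zfp36* turned to 0.03, and 0 of the 9 had an unadjusted p under 0.05. *Atf3* turned to -0.25 without knockout ZT12 replicate 5 and to -0.09 without knockout ZT0 replicate 4. The number under 0.05 was also 0 without knockout ZT12 replicate 1, 3 or 5, 1 without knockout ZT0 replicate 1 or knockout ZT12 replicate 4, 5 without control ZT12 replicate 6, 6 without knockout ZT0 replicate 4 and 7 without knockout ZT12 replicate 2.

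The difference between the genotypes in this change, fitted as an interaction over all 4 groups, was below 0 for all 10 genes. It was -2.53 for *Fos*, -2.36 ± 0.79 for *Egr1*, -1.69 ± 0.71 for *Jun*, -1.29 ± 0.45 for *Dusp1*, -1.25 ± 0.46 for *Ier2* and -1.22 ± 0.38 for *Junb*, and from -0.84 to -0.52 for the other 4. None of the 9 tested passed after adjustment over all genes, in edgeR (adjusted p of 0.442 to 0.587) or in DESeq2, where 0% of all genes passed in edgeR and 0.0198% in DESeq2. At an unadjusted p under 0.05 there were 8 of 9, all but *Atf3*, where 10.8% of all genes passed, and DESeq2 also gave 8, where 10% did. As the 10 genes moved together, 8 of 9 is not 8 separate results. Without knockout ZT0 replicate 3 the median over the 9 went from -1.22 to -0.81 and 4 of them stayed under 0.05, with *Fos* at -1.74.

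**Figure D3:**
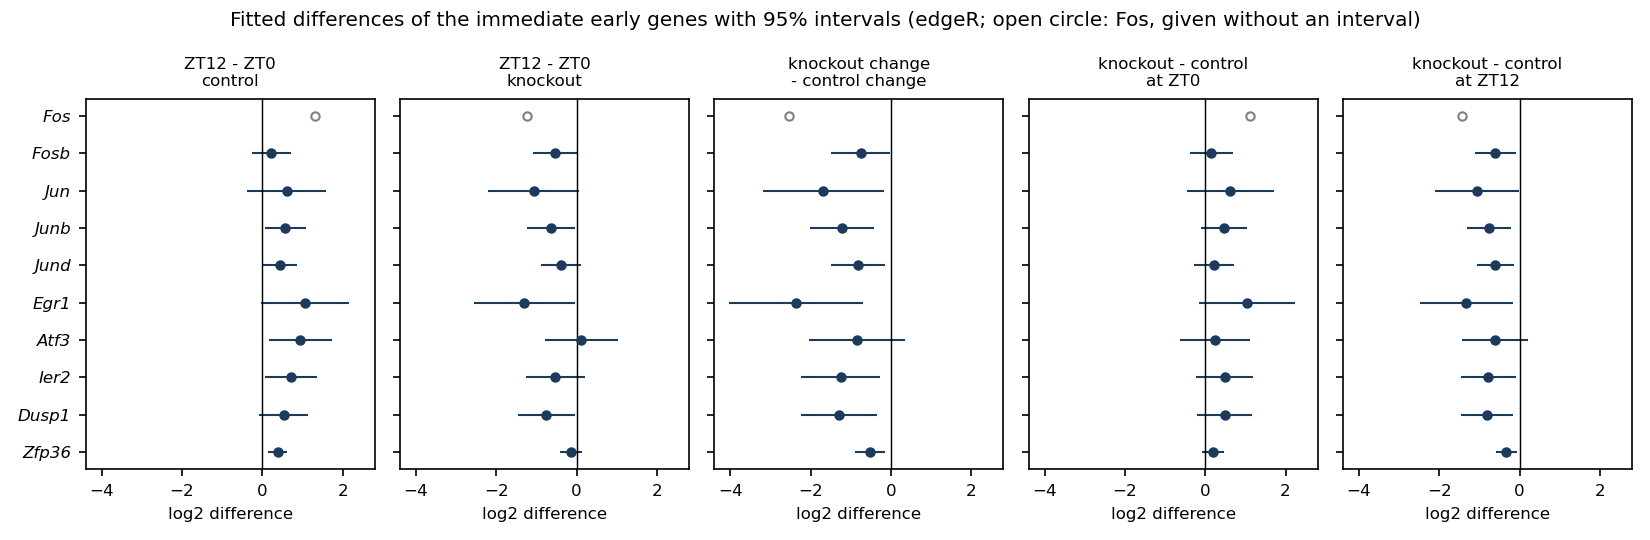
Fitted log2 differences (horizontal axes) of the 10 genes (rows) in the 5 comparisons between groups; points are edgeR estimates, bars their 95% confidence intervals over 21 libraries, and *Fos*, an open circle, has no interval because it was chosen on its spread. The change from ZT0 to ZT12 sits above 0 for every gene in control mice and below 0 for all but *Atf3* in knockout mice, and none of the 9 tested passed after adjustment over all genes.

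Set against controls at the same time of day, the knockout libraries had higher fitted levels of all 10 genes at ZT0 and lower levels of all 10 at ZT12, and no member passed at either time. These comparisons use the same libraries as those by time of day and are not further evidence. At ZT0 the log2 difference was 1.10 for *Fos* and ran from 0.15 for *Fosb* to 1.04 for *Egr1* over the others. In edgeR 0 of the 9 passed after adjustment (0.00987% of all genes did) and 0 of the 9 at an unadjusted p under 0.05 (4.9% of all genes), and DESeq2 gave 0 on both counts (0.0247% and 4.18% of all genes). Without knockout ZT0 replicate 3, *Fosb* and *Jund* turned to -0.10 and -0.08, and *Fos* went to 0.31. The number under 0.05 was 1 without control ZT12 replicate 6 and 2 without knockout ZT0 replicate 4.

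At ZT12 the log2 difference was -1.43 for *Fos* and ran from -1.32 ± 0.55 for *Egr1* to -0.33 ± 0.12 for *Zfp36*. After adjustment 0 of the 9 passed in edgeR (adjusted p of 0.562 to 0.647; 0.0148% of all genes) and 0 in DESeq2 (0.0396%). At an unadjusted p under 0.05 there were 8 of 9 in both tools, all but *Atf3*, where 8.83% of all genes passed in edgeR and 7.9% in DESeq2. In this pair of groups no single library turned a sign, and 5 of the 9 were under 0.05 without control ZT12 replicate 2, knockout ZT12 replicate 3 or knockout ZT12 replicate 4, and 4 without knockout ZT12 replicate 1.

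The immunoglobulin share measures how much of a library the antibody transcripts of the PCs took. All 10 genes had a positive slope on the share in a fit with the 4 group means. Of the 9 tested, 3 passed the adjusted test: *Jund* at 0.098 ± 0.025 log2 units per percentage point (adjusted p = 0.0136), *Junb* at 0.107 ± 0.030 (0.0252) and *Zfp36* at 0.049 ± 0.015 (0.0351). The background was high, with 11.8% of all genes past the test and 5.07% past it and rising with the share. At an unadjusted p under 0.05 there were 7 of 9, all but *Egr1* and *Atf3*, where 25.8% of all genes passed. The slope of *Fos* was 0.186, given without a test. DESeq2 called 5 of the 9, where it called 15.1% of all genes, and gave 7 of the 9 an unadjusted p under 0.05, where 25.2% of all genes had one.

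This relation rested on the 4 libraries with a share over 56%. In those, *Fos* was at 779 to 1421 CPM, and of the other 17 only control ZT12 replicate 3 came near (767 CPM at a share of 53.3%). Among the 17 alone the correlation of log2 CPM with the share was negative for all 10 genes, from -0.43 for *Egr1* to -0.09 for *Zfp36* with a median of -0.29, which is a description. The fitted slope in the 17 was below 0 for *Fos* (-0.32) and for 8 of the other 9, *Fosb* being the exception, and none of the 9 was called. Without control ZT12 replicate 2, or without knockout ZT0 replicate 3, 0 of the 9 were called. Without control ZT12 replicate 1 there was 1, without knockout ZT12 replicate 2 there were 5, and without control ZT12 replicate 3, which is high in these genes at an ordinary share, there were 8. With library size in place of TMM, which moved the median slope of all genes from -0.01 to -0.06, the median slope of the 9 was 0.06 in place of 0.11 and 0 were called. Markers of other cells moved with the share too: 7 of 11 myeloid markers were called, all downward, with a median slope of -0.23 over the 11. Of all 20256 genes tested, 1365 were called downward. All 13 T cell markers had a slope below 0 (median -0.24), none past an unadjusted p of 0.05 in edgeR. As 10 of these 13 had a median below 1 CPM, their slopes rest on few counts. The part of these cells in the result was not tested. Of the 10 plasma cell markers 5 were called, all upward, where 5.07% of all genes were called and rose with the share. That list includes *Igha*, an immunoglobulin gene that is itself counted in the share, so its slope is not a separate result.

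**Figure D4:**
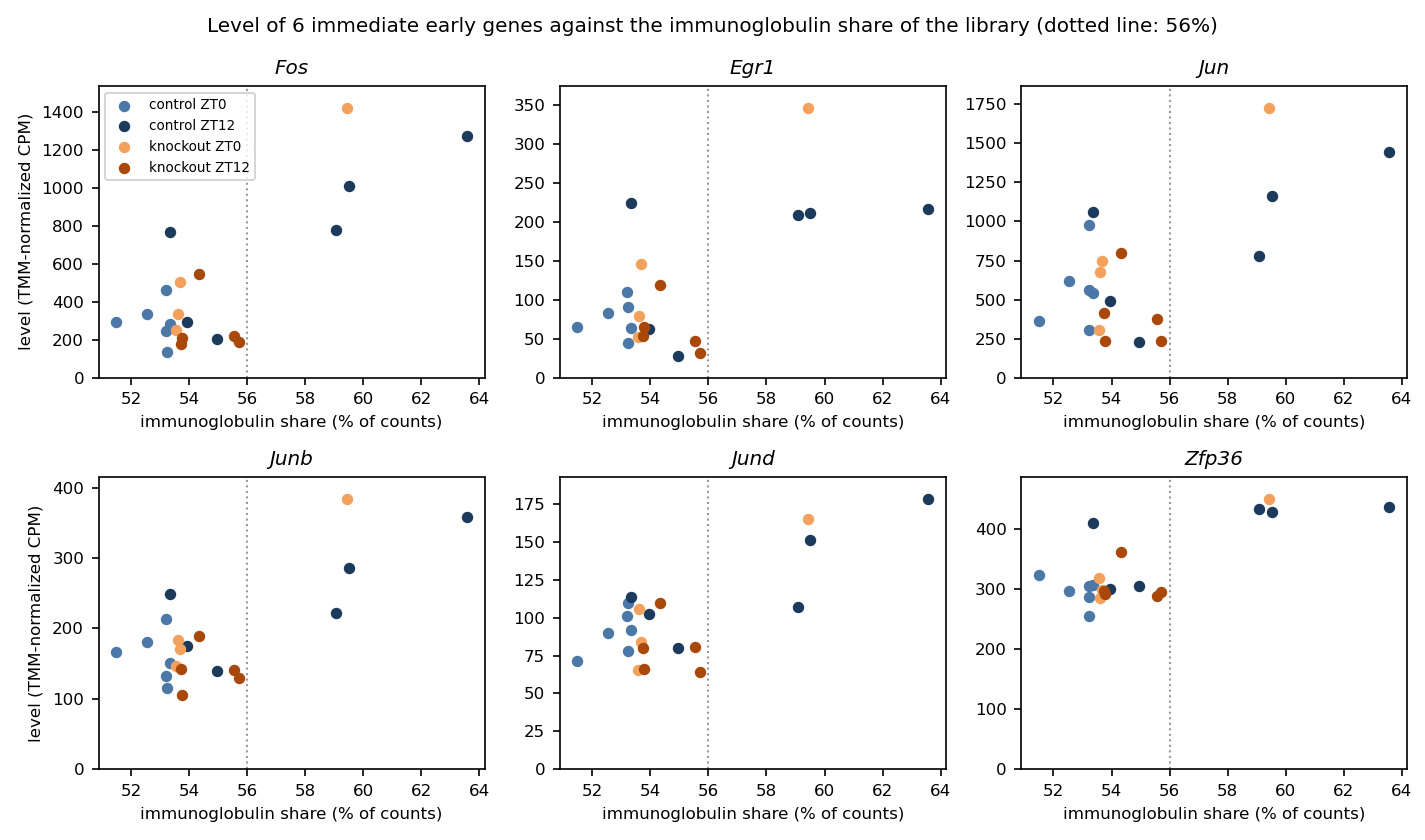
Level of 6 of the genes (vertical axes, TMM-normalized CPM, each from 0) against the immunoglobulin share of the library (horizontal axes, % of all counts); each point is 1 mouse, coloured by group, and the dotted line marks 56%. The 4 libraries to the right of the line are high, and the 17 to its left show no rise.

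The comparisons between groups changed with the share as well. With the share as a covariate, 5 of the 9 had a change above 0 by time of day in control mice, and 0 were under an unadjusted p of 0.05. In the genotype difference all 9 stayed below 0, with a median of -0.55 and 0 under 0.05, and *Fos* at -1.22. Fitted on the 17 libraries alone, which leave 3 control mice at ZT12 and 3 knockout mice at ZT0 and were set apart after seeing the data, the change in control mice was 0.53 for *Fos* and had a median of 0.20 over the 9, with 0 of them under 0.05 in any of the 5 comparisons between groups.

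Other measures of the libraries moved with the genes to differing degrees, and except for the epithelial markers their part in the group comparisons was not tested. Across the 21 libraries the within-group profile of the 10 genes had a correlation of -0.59 with the number of genes that had a count, which was lowest, at 15296, in control ZT12 replicate 2. It had one of 0.45 with the mitochondrial share of the non-immunoglobulin counts and of 0.00 with the total count. Summed over 11 myeloid markers the level was 25.5 CPM in control ZT12 replicate 2 and 27.8 in knockout ZT0 replicate 3, the top pair for *Fos*, and 49.0 to 135 in the other 19. None of these 11 markers had a median below 1 CPM, *Csf1r*, the receptor of macrophages, having one of 15.1, and 3 others on the list (14 in all) were not tested. With the epithelial markers the correlation was 0.05. With their level as a covariate the number of the 9 genes under an unadjusted p of 0.05 was 3 by time of day in control mice, 1 in knockout mice, 8 in the genotype difference, 0 between genotypes at ZT0 and 8 at ZT12.

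Heat shock genes, which often rise with immediate early genes in stressed cells, followed a partly different order. Their 12 members summed to 5427 CPM in knockout ZT12 replicate 1, to 4384 in control ZT12 replicate 2 and to 4265 in knockout ZT12 replicate 4, the 3 highest sums, where *Fos* was at 178, 1271 and 218 CPM. In knockout ZT0 replicate 3, where *Fos* was highest, they summed to 2067 CPM. The correlation with the profile of the 10 genes was 0.33. None of the 12 was called by edgeR in any comparison, and 8 had an unadjusted p under 0.05 in knockout mice from ZT0 to ZT12, all upward, where 8.01% of all genes passed. Among them *Dnaja1*, which encodes a co-chaperone, had a log2 change of 1.37 ± 0.55 and *Hspd1*, a mitochondrial chaperone, of 0.99 ± 0.40, both with an adjusted p of 0.613. Without knockout ZT12 replicate 1 these changes were 1.07 and 0.68. The genes share their libraries, so 8 of 12 is not 8 separate results. Replicates 2, 3 and 5 of knockout ZT12 summed to 1287, 1502 and 2046 CPM, inside the 1118 to 2067 of knockout ZT0.

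A wider list held 50 immediate early genes, of which 48 were in the table and 46 were tested. From ZT0 to ZT12 in control mice 35 of the 46 were above 0, with a median log2 change of 0.23. By edgeR 0 were called, with 8 up and 1 down at an unadjusted p under 0.05, a share near the 18.1% of all genes. *Plk3*, a stress-responsive kinase, was at 1.00 ± 0.27 (edgeR adjusted p = 0.0678) and *Dusp2*, another MAP kinase phosphatase, at -0.53 ± 0.16 (0.0871). DESeq2 called both (adjusted p = 0.00387 and 0.0335), where it called 5.21% of all genes. With another count filter (filterByExpr) edgeR called *Plk3* (adjusted p = 0.0399). With library size only it called *Dusp2* (0.0301), and also with a gene length trend removed (0.033). In the genotype difference 31 of 46 were below 0 with a median of -0.30. By edgeR 0 were called, with 11 down and 1 up at an unadjusted p under 0.05 against 10.8% of all genes. There *Klf2*, a factor that holds lymphocytes quiescent, was at -0.94 ± 0.23 and *Maff*, a small MAF protein, at -1.50 ± 0.44, both with an adjusted p of 0.442. On the immunoglobulin share 6 were called upward, *Klf2*, *Ier5* and *Mcl1* first, and 4 downward, *Zfp36l2*, *Btg1* and *Nr4a3* first, against 11.8% of all genes. Without knockout ZT0 replicate 3, *Klf2*, *Ier5*, *Mcl1*, *Btg1* and *Nr4a3* were no longer called (edgeR adjusted p of 0.0515, 0.0667, 0.104, 0.116 and 0.118). *Zfp36l2* stayed called in all 21 fits without 1 library. With library size only, *Klf2*, *Ier5* and *Mcl1* were not called either. *Zfp36l2*, a close relative of *Zfp36*, had a slope of -0.086 ± 0.014 (adjusted p = 0.00054), the opposite of *Zfp36* in the same fit.

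Of the kinases and factors upstream, 36 were tested, and edgeR called 1 by time of day in control mice, where it called 1.73% of all genes. This was *Elk3*, a serum response partner that can repress *Fos*, at -0.64 ± 0.15 (adjusted p = 0.0382). Its CPM was 15.6 ± 2.04 (SD, n = 6) in the ZT0 mice and 9.99 ± 2.37 (SD, n = 6) in the ZT12 mice, and its call was kept in 12 of the 21 fits without 1 library and lost on its own groups only (adjusted p = 0.0676), with the epithelial markers as covariate (0.0841), with the share as covariate (0.593) and in the 17 libraries (0.43). In knockout mice edgeR called 0 of the 36, and *Map2k1*, a kinase that activates ERK, was at -0.37 ± 0.09 (adjusted p = 0.279). DESeq2 called *Map2k1* there (adjusted p = 0.017), where it called 0.233% of all genes. None of the 36 was called by edgeR in the genotype difference. On the share, where 11.8% of all genes were called, 1 of the 36 was called upward, *Map2k2* at 0.036 ± 0.011 (0.0298), and 6 downward, among them *Mkl2*, a coactivator of serum response factor, at -0.114 ± 0.031 (0.0155). The call of *Map2k2* was kept in 17 of the 21 fits without 1 library and that of *Mkl2* in 19. *Map2k2* was also not called with no count filter (edgeR adjusted p = 0.0694), with the replicate block (0.149) or with library size only (0.48). *Mkl2* was not called with the replicate block (0.102) or with a gene length trend removed (0.0759).

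Of 19 further genes of the AP-1 and leucine zipper class, none was called by edgeR in any comparison of groups. *Ddit3*, which encodes the stress factor CHOP, was at 0.59 ± 0.21 in control mice (edgeR adjusted p = 0.162). DESeq2 called it there (adjusted p = 0.0407), where it called 5.21% of all genes. *Atf4*, the upstream activator of *Ddit3*, was at -0.45 ± 0.20 in the genotype difference (edgeR adjusted p = 0.452). On the share *Atf4* was called upward at 0.058 ± 0.017 (edgeR adjusted p = 0.0245) and *Atf6*, a sensor of unfolded protein, downward at -0.078 ± 0.019 (0.00677). Both calls were lost without knockout ZT0 replicate 3 (0.0797 and 0.0525) and with a gene length trend removed (0.139 and 0.113). *Atf4* was also not called with library size only (0.697) or with the replicate block (0.0954). *Atf6* was not called on the share of the immunoglobulin constant regions alone (0.0831).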

How the data were processed

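Small intestinal IgA+ PCs of 21 mice, sorted by FACS, gave 1 poly-A RNA library each. The deposited values are counts of reads on each gene, whole numbers that the authors had not normalized; the aligner, counter and strand setting are not given in the sources used here, and the submitters' notes name DESeq2 without a version. Gene coordinates are of GRCm38 (97.0% of 53706 matched genes have the GENCODE M21 coordinates). Genes with at least 10 counts in total were kept, TMM factors computed, and edgeR 4.0.16 (robust quasi-likelihood, R 4.3.3) fitted to the 4 group means over all 21 libraries, first tested on simulated data; p-values were adjusted by Benjamini-Hochberg over all genes. The slope added the immunoglobulin share, that is the % of counts on 429 immunoglobulin genes. CPM for correlations used a prior count of 2 on the log2 scale. Replicates are separate mice; no pair of libraries within a group agreed within sampling noise (mean chi-square per gene of at least 29.5 over 46 pairs).

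Named are the 10 genes; from each other list, per comparison, the called genes with the smallest p, at most 3 per direction, or the 2 with the smallest p where none was called (the text gives part of these, and *Egfr* and *Batf2*, under 10 counts in most libraries, are given no fold change, and 1 gene is not reported here); and the 5 genes most alike. The members and lists were chosen with earlier results of these data known. Alternatives were DESeq2 1.42.0, its size factors, library size only, immunoglobulin genes removed, no filter, filterByExpr, a threshold of 0.01, own groups only, a replicate block, covariates (share, *Xist*, epithelial markers), removal of a gene length trend (lowess, span 0.5), the constant region share, no group means, and each library left out. The 17 libraries under a 56% share, and the number of genes with a count as a covariate, were chosen after seeing the data. At these depths the counting error of the 10 genes is small beside the spread between mice, since each had at least 261 counts in every library.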

Additional observations from a re-analysis of the deposited data

Results flagged for a closer look

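In a test for 1 library lying far from the rest of its group (Dixon's criterion, at the 95% level, on each of the 9 genes other than *Fos* in each of the 4 groups), 4 of 36 sets were past the critical value, where chance flags about 1 in 20 groups. Knockout ZT12 replicate 2 was the distant library in 3 of the 4, with 126 CPM of *Ier2*, 120 of *Dusp1* and 361 of *Zfp36*, each the highest of its 5 mice. Its immunoglobulin share was 54.3%, inside the range of its group. The other was *Junb* in knockout ZT0 replicate 3, at 384 CPM among 4 mice. The 10 genes move together, so these are not 4 separate events, and no cause was tested.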

How the results depend on the processing

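The number of members called stayed at 0 of 9 under every alternative for the knockout time of day change, the genotype difference and both knockout against control comparisons; for control mice by time of day it was 1 with DESeq2 and 0 to 1 with 1 library left out. On the immunoglobulin share it was 3, and 5 with DESeq2, 5 with filterByExpr, 7 with no group means, 0 at a threshold of 0.01, with library size only, with the gene length trend removed, with the replicate block or in the 17 libraries under 56%, and 0 to 8 with 1 library left out. No pairing by replicate number was seen: same-numbered libraries of different groups had correlations of -0.41 to 0.41 in their deviations, and 5 of 21 libraries matched best to their own number. Libraries with other numbers had correlations of -0.73 to 0.69. These values cannot exclude a pairing, or a batch that follows another order than the replicate number. With the replicate block the genes called were 183 by time of day in control mice and 1025 on the share, and *Atf3* in knockout mice turned to -0.10; it changed no call of a member outside the share.

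Of all genes, the number called by time of day in control mice was 350, and 14 at a threshold of 0.01, 1052 with DESeq2, 38 on its own groups, 0 with the share and 133 with the epithelial markers as covariate, 12 in the 17 libraries and 31 to 944 with 1 library left out. In knockout mice it was 0, and 47 with DESeq2, 1 without a filter, 1 with the share as covariate, 3 in the 17 libraries and 0 to 1 with 1 library left out. The genotype difference gave 0, and 4 with DESeq2, 1 with the length trend removed and 0 to 1 with 1 library left out. Knockout against control gave 2 at ZT0 (5 with DESeq2, 4 with the length trend removed) and 3 at ZT12 (8 with DESeq2). The share gave 2391, and 969 at 0.01, 5446 with library size only, 1348 with the length trend removed, 4030 with no group means, 195 in the 17 libraries and 279 to 3098 with 1 library left out.

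Signs turned in these fits. With the share as covariate, by time of day in control mice, *Fosb* went to -0.14, *Jun* to -0.11, *Jund* to -0.0338, *Dusp1* to -0.0304 and *Hspe1* to -0.0315, and at ZT0 between genotypes *Fosb* to -0.0641 and *Jund* to -0.0487. With the epithelial markers as covariate *Atf3* went to -0.29 in knockout mice. In the 17 libraries *Fosb* went to -0.0378 in control mice, *Zfp36* to 0.0252 in knockout mice, and at ZT0 between genotypes *Fosb* to -0.0917 and *Jund* to -0.0796. With 1 library left out, *Zfp36* in knockout mice ranged from -0.23 to 0.0290 and *Atf3* from -0.25 to 0.33, and at ZT0 between genotypes *Fosb* from -0.10 to 0.30 and *Jund* from -0.0833 to 0.40. With library size only, the slopes of *Mcl1* and *Map2k2* went to -0.0048 and -0.012. In the 17 libraries the slopes were -0.25 for *Jun*, -0.12 for *Junb*, -0.018 for *Jund*, -0.54 for *Egr1*, -0.58 for *Atf3*, -0.25 for *Ier2*, -0.20 for *Dusp1*, -0.090 for *Zfp36*, -0.0525 for *Ier5*, 0.0016 for *Zfp36l2*, 0.13 for *Nr4a3*, -0.017 for *Map2k2*, 0.037 for *Mkl2*, -0.014 for *Atf4*, 0.030 for *Atf6*, -0.10 for *Hspe1* and -0.021 for *Bag3*. The median correlation of the 10 genes with the share, 0.64 over 21 libraries, was -0.29 in the 17; the other 4 libraries lie apart in the share. The cause of these changes was not tested.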

Other observations

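The number of genes with a count, put in place of the immunoglobulin share, gave slopes of the opposite sign to the share for all 10 genes, per SD of each measure. *Junb* was at -0.28 ± 0.08 log2 units per SD (edgeR adjusted p = 0.0275) and *Jund* at -0.26 ± 0.06 (0.0104), and no other member of the 9 tested was called. On the share, per SD, they were at 0.32 ± 0.09 and 0.29 ± 0.07. Which of these measures the genes follow was not tested.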
